A study of Mus musculus with 12 samples.

Results

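The genes described here are the Wnt ligands, their Frizzled receptors (Fzd), the LGR receptors (Lgr) and R-spondins (Rspo) that amplify the signal, and the secreted antagonists of the Sfrp and Dkk families. The rule that picks them reads gene names and no measured value. It takes protein-coding genes whose GENCODE M21 symbol is a family stem followed by its number, and 44 of the 55487 genes in the count table met that rule. They comprise 19 Wnt, 10 Fzd, 3 Lgr, 4 Rspo, 4 Sfrp and 4 Dkk genes. RNA sequencing was done on 12 mouse libraries in 4 groups of 3. Hepa1, a hepatoma line with the genotype wild type, and primary mouse embryonic fibroblasts (MEFs) carrying a Bach1 knockout (Bach1-/-) were each grown for 4 days in 1 of 2 media. The control medium came from control immortalized MEFs and the ferroptotic medium from immortalized MEFs in which Bach1 had been re-expressed and which were labelled ferroptotic, that is, dying by iron-dependent lipid peroxidation. Both media were DMEM with 10% fetal bovine serum conditioned for 48 h, were replaced daily and received 0.1 mM 2-mercaptoethanol and 0.4 mg/mL vitamin E, so all 4 groups share these additions. The MEFs of both media carry the knockout and Hepa1 does not, so cell type and genotype cannot be told apart in any comparison between the cells.

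Wnt proteins are secreted lipid-modified ligands that bind Frizzled receptors together with the co-receptors LRP5 and LRP6, and the canonical branch stabilises beta-catenin, which then activates genes with TCF and LEF factors. R-spondins bind LGR4, LGR5 and LGR6 and keep the ubiquitin ligases RNF43 and ZNRF3 from removing Frizzled receptors from the cell surface. SFRP proteins bind Wnt ligands outside the cell and DKK proteins such as DKK1 block the LRP co-receptors, while planar polarity and calcium branches signal without beta-catenin. In the liver, Wnt signals are known for zonation and growth, and in mesenchyme for the choice between bone, cartilage and fat.

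The libraries held between 18.58 and 23.4 M reads on genes, and 3 reads in a single library, taken as the limit of detection, correspond to 0.128 to 0.161 CPM (reads per M reads counted). Levels of 1 gene are given as plain CPM, reads divided by the library total, and levels of different genes are compared as RPKM, which also divides by the length of the merged exons in kilobases. Log2 changes are from edgeR's quasi-likelihood test with TMM scaling. Their SE is the absolute log2 change divided by the square root of the F statistic of that test. A change is called when its Benjamini-Hochberg adjusted p over all genes tested is under 0.05. All adjusted p are from that test unless another setting is named beside them. The labels do not state whether replicates were independent cultures, and the p-values therefore reflect the scatter of these libraries alone, which could be technical. In these bulk samples fewer cells of a type and less RNA per cell cannot be told apart. In control medium Hepa1 held the hepatocyte markers Alb, Afp and Trf but no read of Ttr, Apoa1 or Serpina1a and 1 read of the liver regulator Hnf4a, and its hepatocyte list of 10 genes summed to between 484 and 499 CPM. Of the epithelial list it held Krt8 and Krt18 but 0 reads of Epcam and 1 read of Cdh1. Its fibroblast list summed to between 1814 and 2132 CPM, most of it Col1a1 at 1490 ± 164 CPM (SD, n = 3), with Dcn at 289 ± 27.9 CPM. The fibroblast list of the MEFs summed to between 45127 and 47050 CPM in control medium, most of it Col1a1, Col1a2 and Col3a1, while Dcn and Lum stood at only 3.66 ± 0.422 and 1.80 ± 0.118 CPM. The MEFs also held the cartilage collagen gene Col2a1 at 2753 ± 41.1 CPM, and their epithelial list summed to at most 2.69 CPM. Exons of 7 members overlap a gene on the other strand. Those partners held at most 39 reads per group, and without a stated strand setting the reads of such a pair cannot be told apart.

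The members read in Hepa1 were nearly all read in MEFs too, at other levels. In control medium 11 of the 44 members exceeded 3 reads in every Hepa1 library and 26 did so in every MEF library, and 10 did in both, with Wnt10a the exception in Hepa1. In the comparison of MEFs with Hepa1 in control medium all 25 members tested differed, where 87.4% of all genes tested were called. Of the 25, 21 were higher in MEFs (45.9% of all genes) and 4 higher in Hepa1 (41.4% of all genes). Those higher in Hepa1 were the ligand genes Wnt6 (log2 change -6.64, MEFs against Hepa1) and Wnt10a (-6.17), the receptor gene Fzd6 (-1.83) and the R-spondin receptor gene Lgr4 (-0.48). Without scaling beyond library totals the median log2 change of all genes moved from 0.07 to -0.50, and the 25 member calls held.

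The antagonists and R-spondins were read mainly in MEFs. Dkk3, a divergent Dickkopf gene, stood at 165 ± 3.73 RPKM in MEFs in control medium, Rspo3 at 116 ± 2.82, Sfrp1 at 80.1 ± 3.63, Rspo2 at 68.8 ± 2.54 and Sfrp2 at 26.4 ± 1.76 RPKM (SD, n = 3 each). In Hepa1 in control medium Sfrp1 and Sfrp2 had 0 reads in every library, Rspo3 had 1 read, Rspo2 had 3 and Dkk3 had 4 reads over the 3 libraries. Hepa1 replicate 3 in ferroptotic medium stood apart in these genes. There the 7 members that reach at least 50 CPM in MEFs and were not tested in Hepa1 (Wnt16, Fzd2, Rspo2, Rspo3, Sfrp1, Sfrp2 and Dkk3) summed to 53 reads, or 0.131% of their MEF level, against 3 to 7 reads in each other Hepa1 library. No fold with the medium is given for these genes in Hepa1, and the 8 Hepa1 member calls below held without that library.

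Some members were close to silent in both cells. No read was found for Wnt3a, Wnt9b, Fzd10 and Dkk4 in any library, and 9 others had 1 to 10 reads over all 12. Dkk1, the classical LRP antagonist, was among the latter with 2 reads, both in MEFs in ferroptotic medium. Wnt4, Wnt7b, Wnt10b and Rspo1 had 22, 33, 27 and 29 reads in all and did not pass the filter on low counts in either cell type. Of these, Wnt7b was read only in Hepa1, where the control group held 14 reads and the ferroptotic group 19. That filter left 11 members tested in Hepa1, 26 in MEFs and 10 in both.

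In ferroptotic medium, 8 of the 11 members tested in Hepa1 were called, where 58.1% of all genes tested were. The members split into 5 higher and 3 lower (29.3% and 28.8% of all genes). In MEFs 22 of 26 were called, where 55.0% of all genes were. They split into 8 higher and 14 lower (27.8% and 27.2% of all genes). The median log2 change of the tested members was 0.01 in Hepa1 and -0.20 in MEFs, against 0.00 for all genes tested in each cell type. Calls with a log2 change of at least 0.5 in either direction numbered 3 in Hepa1, where 18.5% of all genes reached that size, and 11 in MEFs, where 18.0% did. Those 14 genes are given library by library.

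**Figure D1:**
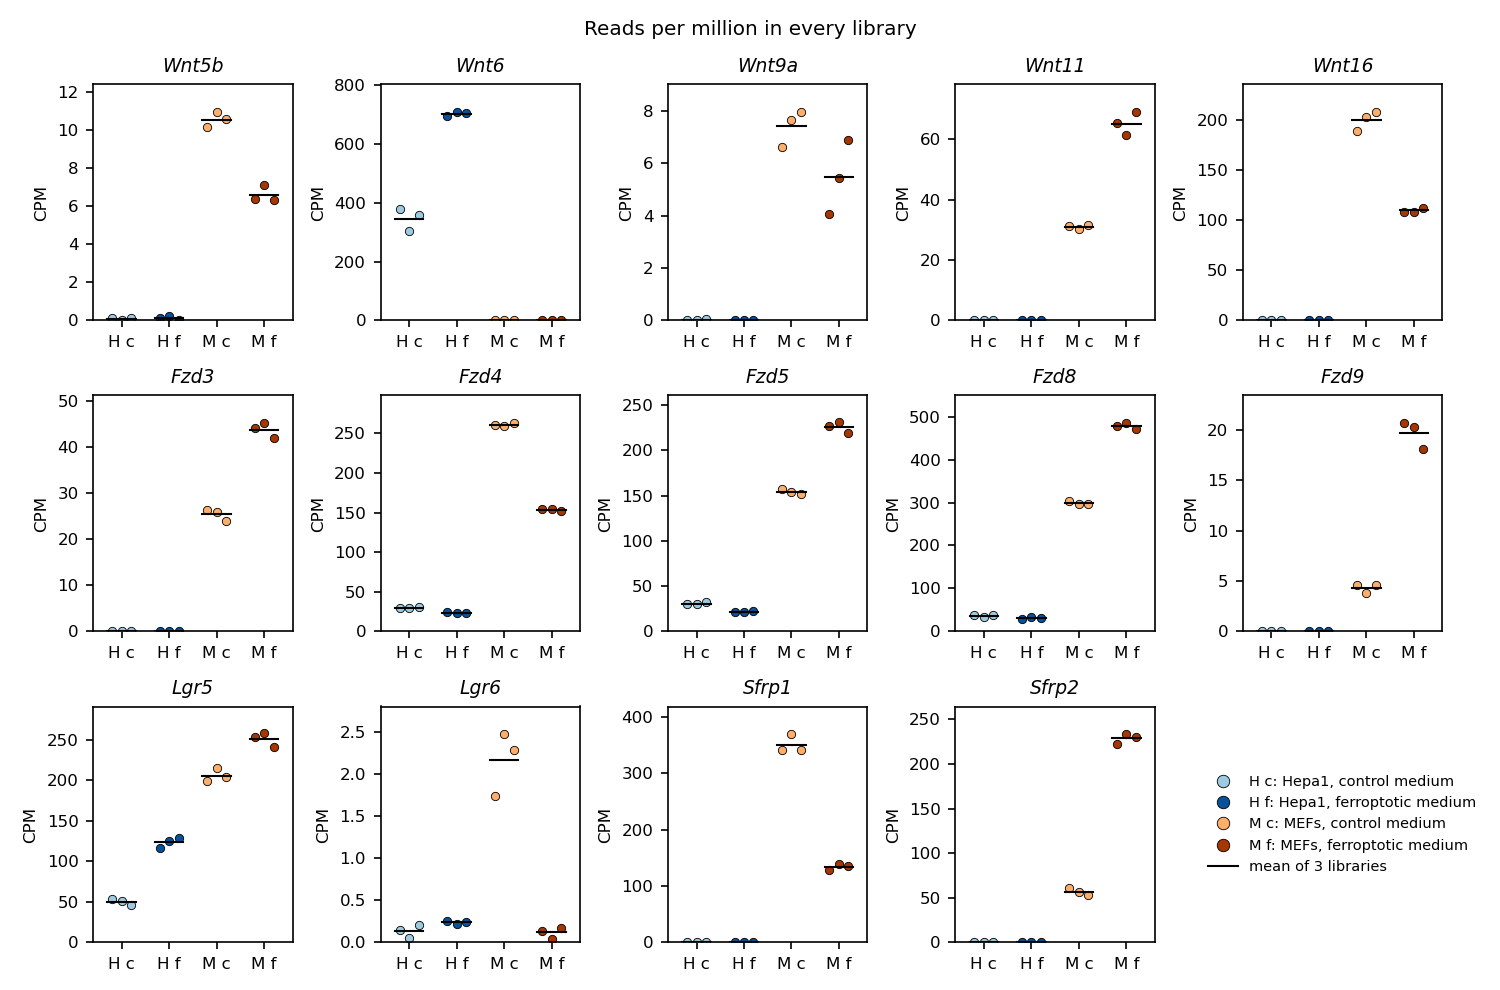
Plain CPM (linear axes from 0) of the 14 members with a called log2 change of at least 0.5 in either direction; each point is a library, black lines are means of 3 libraries, and colours mark Hepa1 and MEFs in control and ferroptotic medium. Wnt6 lies between 303 and 378 CPM in Hepa1 in control medium and between 696 and 708 CPM in ferroptotic medium, while Sfrp1 and Sfrp2 move in opposite directions in MEFs.

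Among the ligands, Wnt6 was the main Wnt transcript of Hepa1 and about doubled, and the MEFs lowered Wnt16 and raised Wnt11. Wnt6 encodes a ligand known from epithelial and mesenchymal development (ENSMUSG00000033227, chromosome 1, 74771892 to 74785322, GRCm38). Its level in Hepa1 was 378, 303 and 359 CPM in control medium and 696, 708 and 705 CPM in ferroptotic medium. Every ferroptotic library lay above every control library, and the spread was wider in control medium. The log2 change was 0.98 (SE 0.0478, adjusted p = 3.69e-16), a 1.97-fold rise. Per length, Wnt6 rose from 158 ± 17.8 to 321 ± 2.88 RPKM and made up 95.7% and then 97.9% of the summed Wnt level of Hepa1. In MEFs Wnt6 stood at 2.35 ± 0.320 CPM in control and 1.94 ± 0.286 CPM in ferroptotic medium (log2 change -0.34, adjusted p = 0.114), and the groups overlapped. The medium response of Wnt6 differed between the cells by -1.31 on the log2 scale, MEFs minus Hepa1 (SE 0.223, adjusted p = 3.26e-06).

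Wnt10a, a ligand gene known from skin and tooth development, lies 6193 bases from Wnt6 on the same strand and was the other Wnt transcript of Hepa1. It stood at 17.0 ± 3.25 CPM in control and 16.2 ± 0.845 CPM in ferroptotic medium. Its log2 change was -0.11 (SE 0.0961, adjusted p = 0.321) and its libraries overlapped, and without control replicate 2 it was called (-0.26, adjusted p = 0.00670). The difference between the neighbours was not tested. In MEFs Wnt10a had 10 reads in control and 1 read in ferroptotic medium. Wnt5a, a ligand of the planar polarity and calcium branches, had only 41 and 24 reads over the 3 Hepa1 libraries of each medium (log2 change -0.80, adjusted p = 0.0718). Without control replicate 3 or ferroptotic replicate 3 it was called (-0.97 and -1.30, adjusted p = 0.0481 and 0.0197).

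In MEFs Wnt16, a ligand known for its role in cortical bone, was the highest Wnt transcript (ENSMUSG00000029671, chromosome 6, 22288227 to 22298522). Its level was 189, 203 and 207 CPM in control medium and 108, 108 and 112 CPM in ferroptotic medium. The groups did not overlap, and the log2 change was -0.93 (SE 0.0328, adjusted p = 2.14e-30). Per length it fell from 45.8 ± 2.17 to 25.1 ± 0.496 RPKM. Its share of the MEFs' summed Wnt level fell from 61.3 ± 1.02% to 43.0 ± 0.319%.

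Wnt11, a ligand of the branches that do not use beta-catenin, moved the other way (ENSMUSG00000015957, chromosome 7, 98835112 to 98855195). Its level in MEFs was 31.1, 30.1 and 31.4 CPM in control medium and 65.2, 61.4 and 68.9 CPM in ferroptotic medium. All ferroptotic libraries were higher, by 1.01 on the log2 scale (SE 0.0461, adjusted p = 1.82e-25). Wnt11 went from 7.47 ± 0.162 to 15.7 ± 0.903 RPKM and passed Wnt5a, which went from 13.9 ± 0.201 to 12.3 ± 0.164 RPKM. The libraries of Wnt11 and Wnt5a were apart in both media, so their order changed. Hepa1 had 0 reads of Wnt11 in all 6 libraries, which in each library allows a level of up to its 3-read limit.

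The other ligands read in MEFs were lower in ferroptotic medium or were not called. Wnt5b, the close relative of Wnt5a (chromosome 6, 119432531 to 119544347), went from 10.2, 10.9 and 10.6 CPM to 6.38, 7.14 and 6.33 CPM. Its groups were apart, with a log2 change of -0.75 (SE 0.0935, adjusted p = 1.27e-09). Wnt5a itself fell by 0.25 on the log2 scale (adjusted p = 4.09e-09). Wnt9a, a ligand known from joint formation (chromosome 11, 59306928 to 59333552), stood at 6.64, 7.68 and 7.95 CPM in control and 4.07, 5.45 and 6.88 CPM in ferroptotic medium. The highest ferroptotic library of Wnt9a lay within the control range, and the log2 change of -0.50 (adjusted p = 0.000392) was -0.33 without ferroptotic replicate 1. Wnt2b, at 0.478 ± 0.120 CPM in control medium, was not called (log2 change 0.29, adjusted p = 0.518). In all, the summed Wnt level went from 74.7 ± 2.36 to 58.4 ± 1.39 RPKM in MEFs and from 165 ± 19.2 to 328 ± 2.88 RPKM in Hepa1.

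Promoters are shown for the 4 ligand and antagonist genes with the largest called changes among those with a window free of annotated exons, since Wnt6, Wnt11 and Sfrp2 rose and Wnt16 fell. The sequences are the 250 bases before the start in RefSeq on GRCm38.p6, 5′ to 3′ on the gene's strand. For 29 of the 44 members 32 such windows were used. Fzd8 and Wnt8a were left out beforehand, so whether they have a window is not shown. The set of all windows used for comparison below was not limited in this way. Wnt11 has a pair of windows, and the one at its annotated gene start is shown. Capitals mark 2 motifs on either strand, the TCF and LEF core CTTTGA and the GC box GGGCGG.
Wnt6, chr1:74771642-74771891, plus strand: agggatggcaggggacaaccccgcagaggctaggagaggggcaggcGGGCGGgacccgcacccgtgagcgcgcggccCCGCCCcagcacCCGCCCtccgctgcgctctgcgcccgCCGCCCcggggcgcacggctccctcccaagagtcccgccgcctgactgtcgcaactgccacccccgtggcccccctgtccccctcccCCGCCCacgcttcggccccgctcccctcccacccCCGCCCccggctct
Wnt11, chr7:98834862-98835111, plus strand: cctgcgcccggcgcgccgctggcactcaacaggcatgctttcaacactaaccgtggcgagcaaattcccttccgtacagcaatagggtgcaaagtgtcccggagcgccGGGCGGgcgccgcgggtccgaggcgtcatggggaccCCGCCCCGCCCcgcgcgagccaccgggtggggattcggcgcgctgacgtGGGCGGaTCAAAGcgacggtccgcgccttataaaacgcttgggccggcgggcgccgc
Wnt16, chr6:22287977-22288226, plus strand: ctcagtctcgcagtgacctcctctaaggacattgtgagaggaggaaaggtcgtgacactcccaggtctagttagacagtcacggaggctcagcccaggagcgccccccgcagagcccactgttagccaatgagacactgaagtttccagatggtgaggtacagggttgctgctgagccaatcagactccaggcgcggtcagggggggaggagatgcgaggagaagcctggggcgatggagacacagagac
Sfrp2, chr3:83766071-83766320, plus strand: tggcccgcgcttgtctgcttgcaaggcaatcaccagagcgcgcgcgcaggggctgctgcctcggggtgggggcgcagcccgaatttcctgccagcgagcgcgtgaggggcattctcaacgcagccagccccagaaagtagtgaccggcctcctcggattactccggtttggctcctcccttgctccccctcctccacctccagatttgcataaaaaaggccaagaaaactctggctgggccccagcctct
The Wnt6 window holds 6 GC boxes at a GC content of 79.6%, and the Wnt11 window shown holds 4, a pair of which overlap, beside a TCF and LEF core, on the opposite strand, that begins 50 bases before the start. The other Wnt11 window, 98838595 to 98838844 on chromosome 7, holds neither set of letters. The Wnt16 and Sfrp2 windows hold neither set of letters. The GC box was found in 22 of the 32 member windows (68.8%) and in 32.7% of all 32851 windows of this length, and the median GC content was 67.4% in member windows and 52.4% in all. The TCF and LEF core was found in 4 of the 32 (12.5%), which are those of Fzd1, Wnt5b, Wnt11 and Dkk1, and in 13.8% of all windows. The AP-1 core TGANTCA was found in 1 member window, a Wnt5b window, and in 6.70% of all windows. These matches describe the letters only.

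Of the Frizzled receptor genes, 6 were tested in both cells. Of these 6, 4 were called in opposite directions, where 15.3% of all genes tested in both were. The call of Fzd1, which is among them, depends on the scaling, as given below. Of the 6 Fzd genes tested in Hepa1, 2 rose and 3 fell (29.3% and 28.8% of all genes), and of the 9 tested in MEFs 4 rose and 5 fell (27.8% and 27.2% of all genes). In Hepa1 Fzd7 and Fzd6 led, at 47.5 ± 0.741 and 36.4 ± 0.197 RPKM in control medium, followed by Fzd1 at 18.3 ± 1.14, Fzd8 at 6.12 ± 0.283, and Fzd4 and Fzd5, which overlapped at 4.44 ± 0.0681 and 4.44 ± 0.173 RPKM. In MEFs Fzd1 led at 169 ± 2.65 RPKM, followed by Fzd2 at 70.2 ± 1.28, Fzd7 at 56.5 ± 1.94 and Fzd8 at 50.02 ± 0.842 RPKM. The summed Fzd level was 117 ± 2.17 and 133 ± 2.24 RPKM in Hepa1 and 418 ± 6.35 and 421 ± 4.65 RPKM in MEFs, in control and ferroptotic medium.

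Fzd5, a receptor known to act through beta-catenin (chromosome 1, 64730558 to 64737751), fell in Hepa1 and rose in MEFs. In Hepa1 it stood at 29.9, 30.1 and 32.0 CPM in control and 21.1, 21.7 and 22.0 CPM in ferroptotic medium, a fall (log2 change -0.55, SE 0.0618, adjusted p = 1.18e-08). In MEFs it stood at 157, 154 and 152 CPM in control and 227, 231 and 219 CPM in ferroptotic medium, a rise (log2 change 0.48, SE 0.0296, adjusted p = 4.08e-20). The groups were apart in both cells, and the responses differed by 1.03 (SE 0.0668, adjusted p = 2.39e-17).

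Fzd8, another receptor of the beta-catenin branch, showed the same opposition. In MEFs it went from 305, 296 and 296 CPM to 479, 486 and 470.3 CPM, a rise (log2 change 0.61, SE 0.0282, adjusted p = 2.88e-25), and no ferroptotic library came near a control library. In Hepa1 its mean went from 36.5 ± 1.69 to 30.7 ± 1.99 CPM (log2 change -0.30, adjusted p = 0.000110). The difference of the responses was 0.90 (adjusted p = 3.46e-16). In ferroptotic medium Fzd8 stood above Fzd2 and Fzd7 and was the second receptor of the MEFs at 80.0 ± 1.28 RPKM.

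Fzd4, the receptor of norrin as well as of Wnt ligands (chromosome 7, 89404355 to 89413134), fell in both. Its MEF libraries stood at 260.1, 259 and 264 CPM in control and 154, 154 and 152 CPM in ferroptotic medium (log2 change -0.84, SE 0.0285, adjusted p = 6.08e-31). In Hepa1 the mean went from 29.8 ± 0.458 to 23.8 ± 0.954 CPM (log2 change -0.37, adjusted p = 5.70e-06). Neither pair of groups overlapped, and the fall was larger in MEFs by 0.46 (difference -0.46, adjusted p = 4.73e-08).

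Fzd9, a receptor known from bone and neural cells (chromosome 5, 135248938 to 135251230), had 0 reads in Hepa1 and the largest rise among the members in MEFs. Its level went from 4.57, 3.80 and 4.62 CPM to 20.6, 20.3 and 18.1 CPM. Every ferroptotic library lay far above every control library, with a log2 change of 2.12 (SE 0.0926, adjusted p = 3.02e-26). Fzd3, a receptor of the planar polarity branch (chromosome 14, 65192449 to 65262463) that had 0 reads in Hepa1, went from 26.4, 25.9 and 24.1 CPM to 44.3, 45.2 and 42.1 CPM in MEFs (log2 change 0.72, SE 0.0512, adjusted p = 1.38e-17). Its groups were apart. Per length Fzd9 and Fzd3 overlapped in control medium, at 1.89 ± 0.201 and 1.99 ± 0.0934 RPKM, and Fzd9 was the higher in ferroptotic medium, at 8.58 ± 0.591 against 3.43 ± 0.127 RPKM.

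The remaining Frizzled genes changed less. Fzd1 and Fzd6 rose in Hepa1, by 0.38 and 0.32 on the log2 scale (adjusted p = 2.68e-08 and 4.02e-09), and fell in MEFs, by 0.11 and 0.38 (adjusted p = 0.000833 and 4.51e-08). The fall of Fzd1 in MEFs was not called without scaling beyond library totals (log2 change -0.04, adjusted p = 0.235), and its MEF groups overlapped. Fzd7 was not called in Hepa1 at 215 ± 3.36 and 224 ± 5.14 CPM (log2 change 0.01, adjusted p = 0.763) and fell by 0.27 in MEFs (adjusted p = 2.15e-11). Fzd2, close to absent in Hepa1 with 6 and 15 reads, fell by 0.45 in MEFs (adjusted p = 2.10e-19).

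Both LGR receptor genes tested in Hepa1, Lgr5 and Lgr4, rose. Lgr5 encodes an R-spondin receptor that marks several stem cell populations and is itself a textbook target of beta-catenin (ENSMUSG00000020140, chromosome 10, 115450311 to 115587780). Its Hepa1 libraries stood at 53.2, 51.6 and 46.2 CPM in control and 117, 125 and 129 CPM in ferroptotic medium. The groups were far apart, with a log2 change of 1.25 (SE 0.0489, adjusted p = 2.02e-18), a 2.38-fold rise and the largest of the 11 members tested in Hepa1. In MEFs Lgr5 went from 199, 215 and 204 CPM to 253, 259 and 241 CPM, a rise of 0.22 (SE 0.0313, adjusted p = 4.41e-08) with no overlap. The response was smaller in MEFs, with a difference of -1.04 (SE 0.0634, adjusted p = 3.55e-18).

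Lgr4, the more widely expressed receptor, rose by 0.33 in Hepa1 (adjusted p = 1.68e-06) and fell by 0.24 in MEFs (adjusted p = 0.000662). In Hepa1 the order of the 2 receptors changed, since Lgr4 was the higher in control medium at 8.33 ± 0.481 against 4.90 ± 0.359 RPKM and Lgr5 in ferroptotic medium at 12.04 ± 0.601 against 10.8 ± 0.264 RPKM, with the libraries apart in both media. In MEFs Lgr5 was the higher in both media. Lgr6, the third receptor of this kind (chromosome 1, 134983301 to 135105276), was read only weakly. Its MEF libraries held 37, 56 and 48 reads in control medium and 3, 1 and 4 reads in ferroptotic medium, that is, 2.17 ± 0.379 and 0.118 ± 0.0650 CPM. The log2 change was -4.19 (SE 0.357, adjusted p = 8.40e-15), and the ratio of the summed reads, control over ferroptotic and scaled to library totals, was 18.2 with an exact 95% interval of 8.97 to 42.9 that covers counting error only. The ferroptotic libraries are at the limit of detection, and Hepa1 held 8 and 14 reads of Lgr6.

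**Figure D2:**
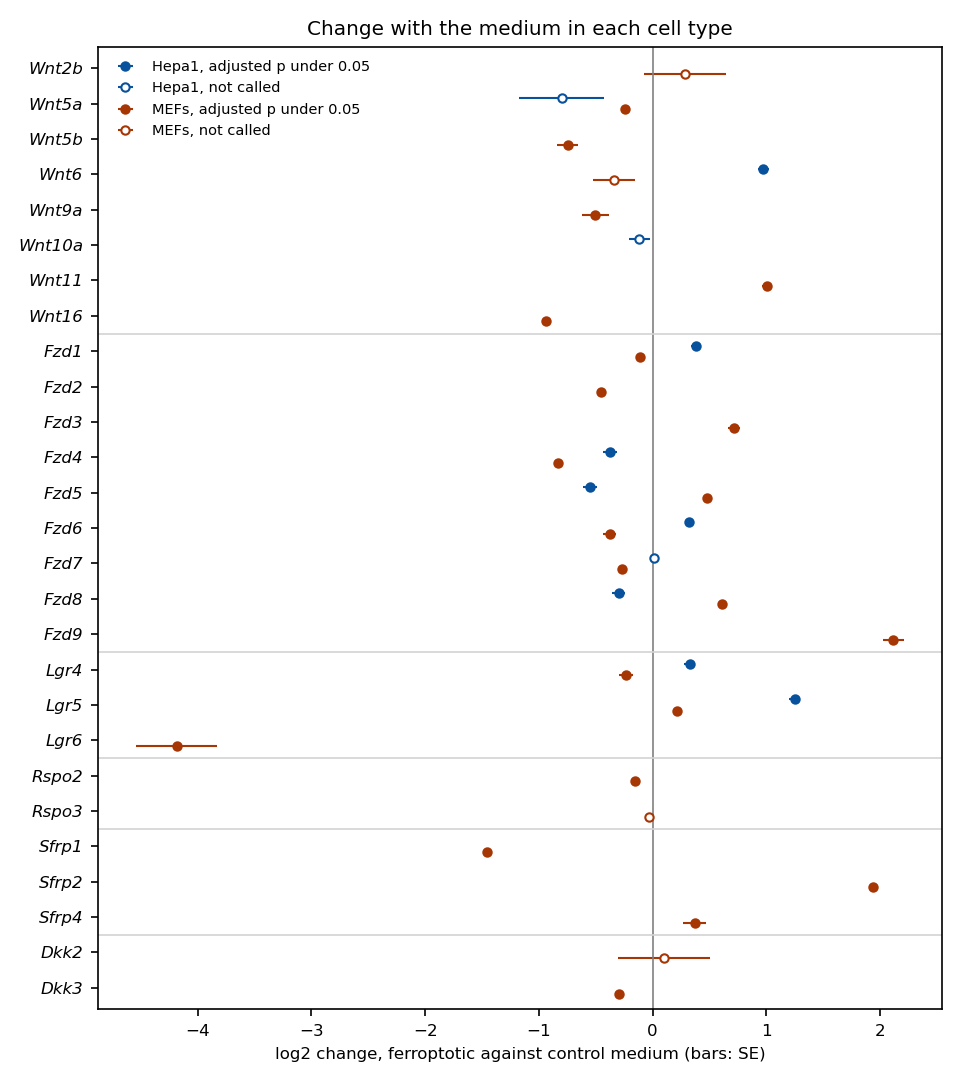
Log2 change in ferroptotic against control medium with its SE for each member tested in Hepa1 (blue) or MEFs (brown), grouped by family; filled points have an adjusted p under 0.05. Fzd1, Fzd5, Fzd6, Fzd8 and Lgr4 lie on opposite sides of 0 in the 2 cell types, and Fzd4 and Lgr5 on the same side.

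The R-spondin genes themselves moved little. Rspo3 encodes a secreted amplifier of Wnt signals and stood at 357 ± 8.72 and 367 ± 9.29 CPM in MEFs in control and ferroptotic medium. Its log2 change was -0.03 (SE 0.0284, adjusted p = 0.3904) and the groups overlapped. Rspo2, its relative, stood at 352 ± 13.0 and 331 ± 2.21 CPM and fell by 0.16 (adjusted p = 5.53e-06). Together they gave a summed level of 184 ± 5.34 and 184 ± 2.81 RPKM in MEFs, with Rspo3 above Rspo2 in each library.

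Among the antagonists of MEFs, Sfrp1 and Sfrp2 changed places. Both encode secreted Frizzled-related proteins that bind Wnt ligands. Sfrp1 (ENSMUSG00000031548, chromosome 8, 23411502 to 23449632) went from 341, 369 and 341 CPM to 129, 138 and 135 CPM. The groups were apart, with a log2 change of -1.45 (SE 0.0323, adjusted p = 3.06e-39). Sfrp2 (ENSMUSG00000027996, chromosome 3, 83766321 to 83774316) went from 60.8, 56.6 and 53.2 CPM to 223, 233 and 230.0 CPM. The groups were apart, with a log2 change of 1.94 (SE 0.0352, adjusted p = 2.68e-43), a 3.83-fold rise. Sfrp2 had the smallest adjusted p of the 26 members tested in MEFs.

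Per length, Sfrp1 stood above Sfrp2 in control medium, at 80.1 ± 3.63 against 26.4 ± 1.76 RPKM, and below it in ferroptotic medium, at 30.7 ± 1.05 against 106 ± 2.51 RPKM, with the libraries apart in both. Sfrp1 made up 74.1 ± 1.40% of the summed Sfrp level of MEFs in control medium and 22.1 ± 0.218% in ferroptotic medium. The share of Sfrp2 was 24.4 ± 1.53% and 76.3 ± 0.0712%. The sum over the family changed less than either member, from 108 ± 3.99 to 139 ± 3.39 RPKM. Sfrp4, a low member of the family at 6.70 ± 0.620 CPM, rose by 0.37 (adjusted p = 0.00130).

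**Figure D3:**
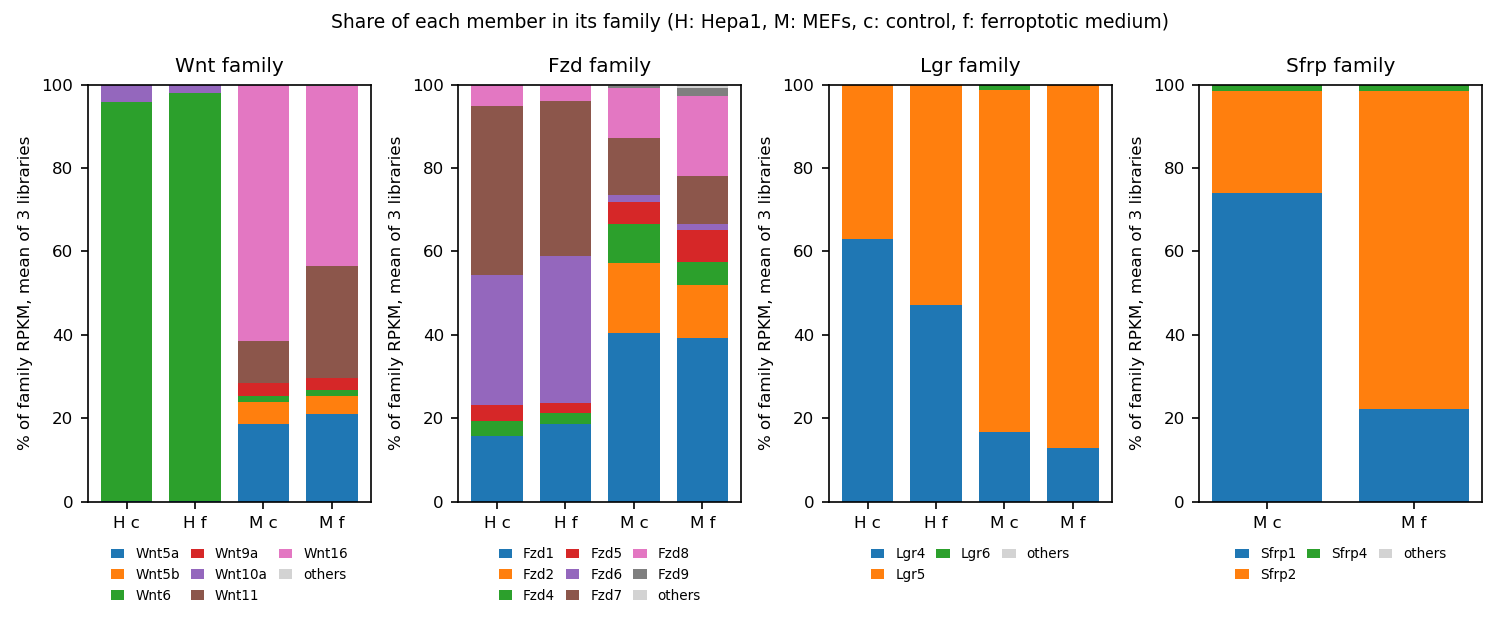
Share of each member in the summed RPKM of its family (percent, mean of 3 libraries, stacked to 100) for the Wnt, Fzd and Lgr families in Hepa1 (H) and MEFs (M) in control (c) and ferroptotic (f) medium and for the Sfrp family in MEFs; members under 1% in every group are pooled as others. Sfrp1 goes from 74.1% to 22.1% of its family in MEFs, and Wnt6 makes up over 95% of the Wnt level in Hepa1.

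Dkk3 was the highest Dickkopf transcript by far, at 99.9% of the summed Dkk level of MEFs in both media. It went from 555 ± 12.5 to 475 ± 9.02 CPM with no overlap (log2 change -0.29, SE 0.0282, adjusted p = 4.60e-13). Dkk2, an LRP antagonist at 0.482 ± 0.319 CPM in control medium, was not called (log2 change 0.10, adjusted p = 0.848).

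Of the 10 members tested in both cells, 5 were called in opposite directions, namely Fzd1, Fzd5, Fzd6, Fzd8 and Lgr4, against the same 15.3% of all genes. For Fzd1 this rests on a small fall in MEFs (log2 change -0.11) that was not called without scaling beyond library totals. Fzd4 and Lgr5 were called in the same direction. The difference of the responses itself was called for 9 of the 10, where 54.0% of all genes tested in both were called and 44.2% of all 15627 genes in that fit. The exception was Wnt5a (0.55, adjusted p = 0.220), which rests on few Hepa1 reads and was called without Hepa1 ferroptotic replicate 3 (1.06, adjusted p = 0.0469). The directions split within a family: the 2 Fzd genes that rose in MEFs among these 10 fell in Hepa1, and both that rose in Hepa1 fell in MEFs.

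Markers of several mesenchymal cell types moved with the medium in MEFs, where 55.0% of all genes were called. All 10 genes of the fibroblast list were tested, 3 rose and 5 fell, and its sum went to between 38524 and 39817 CPM in ferroptotic medium. The chondrocyte and bone list (Sox9, Col2a1, Acan, Runx2, Sp7) summed to between 2969 and 3049 CPM in control medium and between 4090.3 and 4284 CPM in ferroptotic medium, with 4 of 5 genes higher. Of the adipocyte list 2 of 4 genes were tested and both rose, with a sum of 35.2 to 39.2 and then 88.2 to 98.2 CPM. Of the smooth muscle and myofibroblast list 3 of 4 genes were tested and all 3 fell, with a sum of 566 to 626 and then 294 to 304 CPM. The part of these lists in the changes of Wnt16, Wnt11, Fzd9, Sfrp1 and Sfrp2 was not tested. In Hepa1, where 58.1% of all genes were called, the hepatocyte list summed to between 1647 and 1797 CPM in ferroptotic medium, with all 3 genes tested higher. Most of that sum was Trf, which went from 398 ± 10.5 to 1345 ± 65.2 CPM. Alb went from 33.6 ± 3.64 to 311 ± 13.8 CPM and Afp only from 58.7 ± 3.13 to 66.8 ± 2.33 CPM. The rest of the list was not tested, and Fgb had 18 and then 4 reads. The fibroblast list of Hepa1 summed to between 2746 and 2815 CPM in ferroptotic medium, with 5 of 6 genes tested higher. Most of that sum was Col1a1, at 2282 ± 45.4 CPM. Col1a2 (6.75 ± 9.80 CPM) and Col3a1 (7.33 ± 3.99 CPM) were low and scattered widely between the 3 ferroptotic libraries. The epithelial list of Hepa1 summed to between 2257 and 2345 CPM in control and between 2142 and 2243 CPM in ferroptotic medium, with 1 of 3 genes tested higher and 2 lower. The macrophage list of Hepa1 went from between 26.9 and 32.9 to between 10.5 and 12.9 CPM, with 2 of 4 genes tested higher and 2 lower. Its member Cd68 stood at 24.8 ± 3.32 and then 3.604 ± 0.317 CPM, Adgre1 had 2 and then 118 reads, and Ptprc had 0 reads in all 12 libraries. In MEFs the macrophage list summed to between 4.00 and 5.12 and then between 7.22 and 8.55 CPM, with 1 of 2 genes tested higher. The endothelial list had no gene tested in Hepa1, and in MEFs its 1 gene tested, Tek, rose from 4.00 ± 0.374 to 7.12 ± 1.09 CPM, while Cdh5 had 0 reads in all 12 libraries. The part of these lists in the changes of the members was not tested.

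Genes through which these members act were read from 5 lists, and their counts stand against 58.1% of all genes called in Hepa1 and 55.0% in MEFs. Of 17 receptor partners and genes of ligand release, 13 were tested in Hepa1, with 6 higher and 2 lower (61.5% called), and 16 in MEFs, with 4 higher and 10 lower (87.5% called). Rnf43, the ubiquitin ligase that R-spondins hold off, went from 71.5 ± 8.58 to 236 ± 10.7 CPM in Hepa1 (log2 change 1.68, SE 0.0523, adjusted p = 1.21e-20), and its relative Znrf3 rose by 0.65 (adjusted p = 2.93e-13). In MEFs Rnf43 was low, at 0.624 ± 0.336 CPM in control medium (log2 change 0.09, adjusted p = 0.844) and Znrf3 was not called (0.14, adjusted p = 0.106). Gpc3, a glypican gene active in fetal liver and liver tumours, rose in both cells, by 1.05 in Hepa1 and 0.86 in MEFs (adjusted p = 7.11e-19 and 9.02e-26). Ror1, a Wnt5a receptor gene, likewise rose by 1.02 and 0.92 (adjusted p = 2.38e-09 and 1.69e-23). Wls, whose product carries Wnt ligands to the cell surface, fell in MEFs from 1475 ± 16.5 to 995 ± 11.6 CPM (log2 change -0.64, SE 0.0272, adjusted p = 1.04e-26). In Hepa1, where Wnt6 was high, Wls stood at only 3.01 ± 0.300 and 2.89 ± 0.413 CPM. The co-receptor gene Lrp5 rose by 0.42 in MEFs (adjusted p = 1.34e-18) and was not called in Hepa1 (0.06, adjusted p = 0.163).

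Genes known as direct targets or feedback regulators of beta-catenin, leaving out the members Lgr5 and Dkk1, numbered 16. In Hepa1 12 were tested, 8 rose and 4 fell, against 29.3% and 28.8% of all genes, with a median log2 change of 0.65. In MEFs 12 were tested, 3 rose and 4 fell, with a median of 0.11, and the 58.3% called lay near the 55.0% of all genes. Axin2, the negative feedback scaffold often read as a gauge of the pathway, went from 223 ± 15.8 to 497 ± 5.68 CPM in Hepa1 (log2 change 1.11, SE 0.0382, adjusted p = 1.12e-19). In MEFs it stood at 2.98 ± 0.337 and 2.46 ± 0.296 CPM (-0.34, adjusted p = 0.0719), and the responses differed by -1.45 (adjusted p = 3.84e-10). Tnfrsf19, a receptor gene of the TNF family, rose in Hepa1 from 41.4 ± 0.674 to 127 ± 7.10 CPM (1.57, adjusted p = 5.87e-21). Ccnd1, the cyclin D1 gene, rose by 1.24 in Hepa1 and 0.68 in MEFs (adjusted p = 4.40e-19 and 3.93e-26). Myc, a growth regulator on the same list, fell by 1.09 in Hepa1 and 1.20 in MEFs (adjusted p = 2.23e-15 and 3.74e-23), so the list did not move in one direction. Cd44, an adhesion receptor gene, fell by 0.78 in MEFs (adjusted p = 8.02e-18), and Nkd1, a Dishevelled-binding feedback inhibitor, rose by 0.49 (adjusted p = 1.61e-17).

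**Figure D4:**
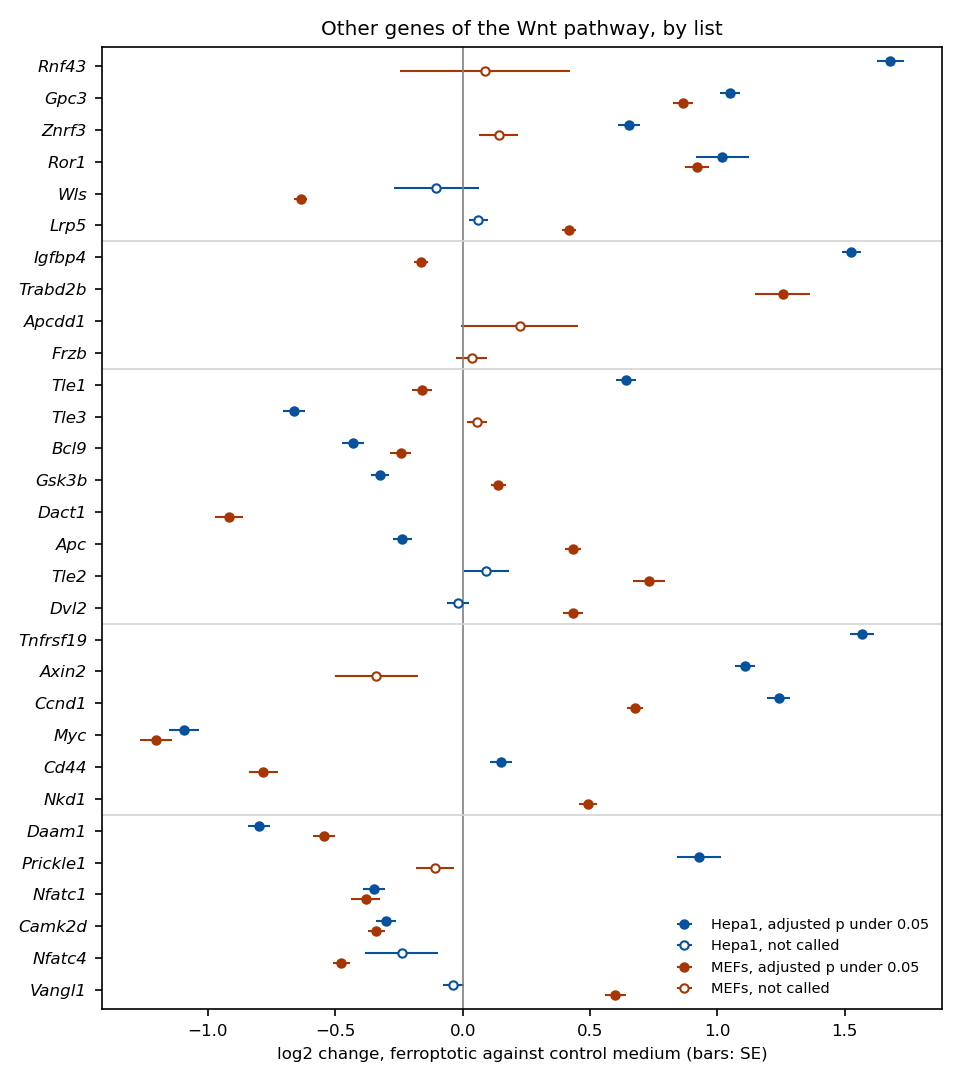
Log2 change in ferroptotic against control medium with its SE in Hepa1 (blue) and MEFs (brown) for the named genes of 5 lists, separated by grey lines: receptor partners and ligand release, other secreted regulators, beta-catenin machinery, targets, and planar polarity and calcium. Rnf43 and Axin2 lie at 1.68 and 1.11 in Hepa1 and are not called in MEFs, while Myc lies below 0 in both.

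The intracellular machinery changed by smaller steps. Of 28 genes of the beta-catenin machinery, 24 were tested in Hepa1 (5 higher, 8 lower) and all 28 in MEFs (13 higher, 6 lower), with median log2 changes of -0.02 and 0.08. The 54.2% called in Hepa1 lay near the 58.1% of all genes, and 67.9% were called in MEFs against 55.0%. In Hepa1 the co-repressor genes Tle1 and Tle3 went apart, by 0.64 and -0.66 (adjusted p = 5.29e-14 and 1.47e-13). The co-activator gene Bcl9 fell by 0.43 and the kinase gene Gsk3b by 0.33 (adjusted p = 1.56e-09 and 6.97e-09). In MEFs Dact1, a Dishevelled-binding regulator, fell by 0.92 (adjusted p = 2.06e-20), and Tle2, Apc and Dvl2 rose by 0.73, 0.43 and 0.43 (adjusted p = 7.72e-15, 3.70e-17 and 1.54e-13). Apc, the scaffold of the complex that degrades beta-catenin, moved the other way in Hepa1 (-0.24, adjusted p = 3.90e-06).

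Of 17 planar polarity and calcium genes, 12 were tested in Hepa1 (2 higher, 4 lower), or 50% called against 58.1% of all genes. In MEFs 16 were tested (4 higher, 7 lower), or 68.8% called against 55.0%. Daam1, a formin of this branch, fell by 0.80 in Hepa1 and 0.54 in MEFs (adjusted p = 6.62e-15 and 1.83e-16). Camk2d, a calcium-dependent kinase gene, fell by 0.30 and 0.34 (adjusted p = 2.41e-07 and 6.52e-13). Prickle1 rose by 0.93 in Hepa1 (adjusted p = 3.84e-10), and Vangl1 rose by 0.60 in MEFs (adjusted p = 6.93e-18), both being core planar polarity genes. Nfatc1, a calcium-regulated transcription factor gene, fell by 0.35 in Hepa1 (adjusted p = 9.99e-08), and its relative Nfatc4 fell by 0.48 in MEFs (adjusted p = 1.99e-18).

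Of 12 other secreted regulators, 1 was tested in Hepa1 and 4 in MEFs. Igfbp4, an IGF-binding protein that also binds Wnt receptors, rose in Hepa1 from 215 ± 11.9 to 641 ± 22.4 CPM (log2 change 1.53, SE 0.0377, adjusted p = 1.07e-22) and fell by 0.16 in MEFs (adjusted p = 6.98e-07). Trabd2b, whose product cleaves Wnt ligands, rose in MEFs from 3.76 ± 0.0536 to 9.43 ± 0.416 CPM (1.26, adjusted p = 1.36e-14). Frzb, a further Frizzled-related antagonist gene, was not called in MEFs (0.04, adjusted p = 0.640), nor was Apcdd1 (0.22, adjusted p = 0.424).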

How the data were processed

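Raw read counts per Ensembl gene, deposited by the authors for each library and as 1 table, were used unaltered (0 values differed between both forms). HTSeq 0.9.1, STAR 2.7.10a, Trimmomatic 0.39 and FastQC 0.11.9 are named as tools, and GRCm38 (mm10) as the build, per the submitters' processing notes. Neither annotation release nor strand setting is given in the sources used here. The 5 HTSeq summary lines were left out: 2.00 to 2.58% of reads matched no gene, and 3.66 to 4.03% were ambiguous. Multi-mapped reads are not in the counts. GENCODE M21 gave a name for 55227 identifiers and none for 260.

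Within a cell type, 3 libraries per medium were compared by edgeR 4.0.16 (R 4.3.3), with filterByExpr, TMM and the quasi-likelihood F-test. The difference of responses was an interaction over all 12 libraries, read only for members tested in both cell types. Alternatives were other scalings, DESeq2 1.42.0, limma-voom (limma 3.58.1), other count filters, a replicate block, a joint fit and each library left out. The member rule uses names only, but this gene family and the lists were chosen with earlier results of these data known. Values in every library are given for members called with a log2 change of at least 0.5 and a mean of at least 1 CPM, and up to 4 genes per list and cell type are named by smallest adjusted p. Sequences are RefSeq's on GRCm38.p6.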

Additional observations from a re-analysis of the deposited data

Results flagged for a closer look

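The change with the medium differed between the cell types for 9 of the 10 members tested in both. It also differed for 19 named genes of the pathway lists. Both counts are by the interaction test of edgeR at an adjusted p under 0.05, which called 54.0% of all genes tested in both. The pathway genes were named by smallest adjusted p in the medium comparisons of these same libraries, so their count is not an independent result. The differences below are log2 changes in MEFs minus those in Hepa1. All share the 12 libraries, and cell type and Bach1 genotype cannot be told apart in any of them.

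Among the members, Fzd5 (1.03) and Fzd8 (0.90) responded more positively in MEFs. The response was more negative in MEFs for Wnt6 (-1.31), Lgr5 (-1.04), Fzd6 (-0.70), Lgr4 (-0.57), Fzd1 (-0.49), Fzd4 (-0.46) and Fzd7 (-0.28). 

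Among the genes of the pathway lists, the response was more negative in MEFs for Igfbp4 (-1.69), Rnf43 (-1.59), Axin2 (-1.45), Prickle1 (-1.04), Cd44 (-0.94), Tle1 (-0.80), Ccnd1 (-0.57), Wls (-0.54), Znrf3 (-0.51) and Gpc3 (-0.19). It was more positive in MEFs for Tle3 (0.72), Apc (0.67), Tle2 (0.64), Vangl1 (0.63), Gsk3b (0.46), Dvl2 (0.45), Lrp5 (0.35), Daam1 (0.25) and Bcl9 (0.19). Wls rests on few Hepa1 reads and Rnf43 on few MEF reads. Without Hepa1 ferroptotic replicate 3 the difference for Wls was -0.41 (edgeR adjusted p = 0.0607), and without MEF control replicate 3 that for Rnf43 was -1.09 (edgeR adjusted p = 0.0807).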

How the results depend on the processing

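Under every alternative run, the 8 member calls in Hepa1, the 9 differences of response and the 25 differences between the cells in control medium held, as did 21 of the 22 member calls in MEFs. The exception, Fzd1, is given above. No count of called genes moved by over 1.5 times. Without scaling beyond library totals Rspo3 in MEFs had a log2 change of 0.039 (adjusted p = 0.251). That setting also moved the split of all calls: 63.8% were higher in MEFs against 50.5% with TMM, and 34.6% against 52.6% between the cells. Leaving out 1 library at a time turned the direction of members that were not called: the log2 change ranged from -0.26 to 0.012 for Wnt10a and -0.0065 to 0.023 for Fzd7 in Hepa1, and from -0.11 to 0.51 for Wnt2b and -0.40 to 0.77 for Dkk2 in MEFs. For Frzb in MEFs the range was -0.0038 to 0.096. Wnt5a in Hepa1 was called by limma-voom (-0.87, adjusted p = 0.0440) and, in edgeR, without ferroptotic replicate 3 (-1.30, adjusted p = 0.0197).

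Same-numbered control and ferroptotic libraries deviated from their group means with correlations of -0.0143 to 0.0366, and differently numbered ones with correlations of -0.0324 to 0.0241. No effect shared by same-numbered libraries was seen in these values. They cannot tell whether same-numbered samples were set up as pairs. With a replicate block 7437 genes were called in Hepa1 and 8073 in MEFs, against 7656 and 7943 without it, and no member call in either cell type changed.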
